A study of Rattus norvegicus with 42 samples.

Results

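Neat1 knockout GH4C1 cells were compared with wild-type GH4C1 cells 10 h after a change of medium, the first of 7 sampling times, with attention to the genes on which the knockout acted most or in the opposite direction at that time. The comparison rests on 6 of the 42 libraries of the series, 3 of wild type (WT) and 3 of knockout (KO), and the other 36, taken every 4 h up to 34 h, give the later KO effect. GH4C1 is an established rat pituitary line that makes growth hormone and prolactin. Per the labels, WT cells had the wild-type genotype with no treatment, and KO cells were Neat1 -/- after CRISPR-Cas9, both grown in HamF10 medium with horse serum and fetal calf serum. The labels do not say whether the KO cells are 1 clone, or whether replicates are separate cultures, so p-values measure the spread between these libraries, which may be technical. A difference between clones, or between the preparation of the WT and KO sets, cannot be told apart from the deletion.

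Of 13776 genes in both tables, 687 (4.99%) had a KO effect at 10 h that was larger than at every later time or of opposite sign to all later times. The KO effect is the log2 fold change of KO against WT, so that 1 stands for a doubling and -1 for a halving in KO. A gene was counted when edgeR's quasi-likelihood test called it at an adjusted p under 0.05 for KO against WT at 10 h, and again for the difference between its effect at 10 h and the mean of its effects at 14, 18, 22, 26, 30 and 34 h. In 657 of the 687 genes the effect at 10 h was larger in size than at each of the other 6 times, and in 30 it was opposite in sign to all 6. These values chose the genes, so their effects at 10 h are a description.

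Neat1 is a long non-coding RNA that serves as the scaffold of paraspeckles, nuclear bodies that hold RNA-binding proteins and some transcripts. In pituitary cells paraspeckles are known for retaining RNAs in the nucleus with a daily rhythm. Replacing the medium, which brings fresh serum, is a common way to bring cultured cells into phase, and genes that respond to serum change soonest after it. The genes are given by the Ensembl identifiers of the tables. The reference used here paired 0 of the 13776 identifiers with a symbol. Neat1 itself, the lineage markers and the pathway lists were therefore not analysed here, the KO label was not checked against its target, and the roles of single genes are not stated. Levels are in CPM, counts scaled to the product of the library's TMM factor and its total without the 2 genes named below. Where single genes are shown, they are the first of their kind in each direction by the size of the difference between times. The ranking is among the 540 of the 687 genes that averaged 10 CPM or more over the 6 libraries at 10 h and had WT and KO ranges that did not overlap. Genes outside these limits had larger differences in some sets.

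The 6 libraries at 10 h held 41.8 to 68.8 M counts (M, 1e6 counts) in WT and 49.9 to 55.1 M in KO. The 2 genes left out of the scaling, ENSRNOG00000043866 and ENSRNOG00000030478, took 0.0337% to 0.0833% of the counts of the WT libraries and 19.0% to 20.01% of those of the KO libraries at 10 h. Their KO effect at 10 h was 9.19 (SE 0.62) and 7.59 (SE 0.81). Neither was among the 687 genes, since their difference between 10 h and the other times was not called, at 0.26 (adjusted p 0.809) and 0.07 (adjusted p 0.971). Replicates at 10 h correlated at 0.992 to 0.995 in log2 CPM over genes. Over all WT libraries the share of the 2 genes ranged from 0.0308% to 0.335%. It was highest in WT replicate 1 at 34 h, a library that stood apart in an earlier analysis of these data. That library enters the later effects. Where stated, results are given without it too. Other results, among them most values at 34 h, are given with it only. The next highest share, 0.304%, was that of WT replicate 3 at 30 h, which also enters the later effects and was not left out in any fit. The part of the uneven share in the results was not tested.

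At 10 h, 9586 genes (69.6% of those tested) differed between KO and WT by edgeR at an adjusted p under 0.05. Of all genes tested, 35% were called higher in KO and 34.6% lower, and 19.3% were called with at least a 2-fold change. With library totals of all genes in place of the scaling without the 2 genes, 28.5% of 10151 calls were higher in KO, and the median effect over all genes was -0.32, against -0.0046. The directions below are relative to the scaling without those 2 genes. Bulk libraries do not tell a change in every cell from a change in the share of cells that express a gene.

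The effect at 10 h differed from the mean effect of the other 6 times for 1714 genes (12.4%). The effect at 10 h was the more positive in 6.01% of all genes tested and the more negative in 6.43%. Of these 1714 genes 1270 were also called at 10 h, and 687 of them met the rule. Without WT replicate 1 at 34 h, the difference was called for 3530 genes, and 1201 genes met the rule, 666 of the 687 among them. Against 14 h alone the difference at 10 h was called for 63 genes. The effect at each other time was set against the mean of its other times in the same way. That difference was called for 174 to 496 genes at the times from 14 to 26 h, 1985 at 30 h and 6420 at 34 h.

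**Figure D1:**
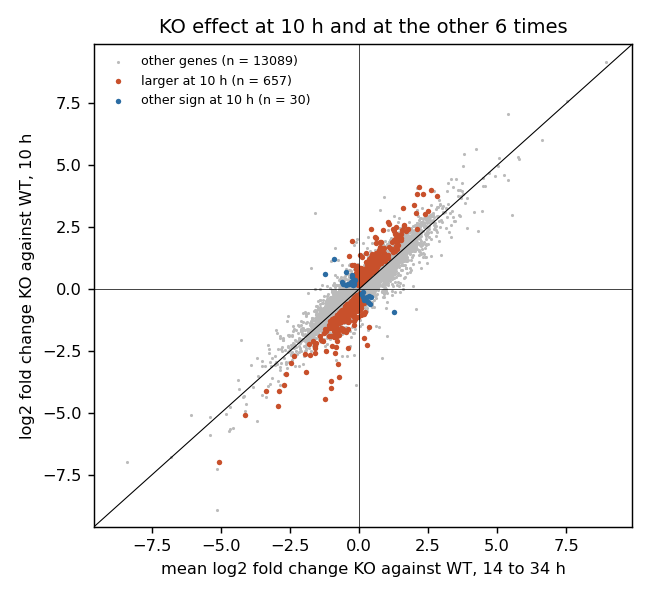
Each point is a gene, with the mean KO effect (log2 fold change of KO against WT) over 14 to 34 h on the horizontal axis and the effect at 10 h on the vertical axis. The line marks equal effects. The 657 genes with a larger effect lie farther from 0 than the line, and the 30 genes of other sign lie at the upper left and lower right of the crossing of the 0 lines.

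Among the 310 genes within these limits that had a larger effect and were lower in KO, ENSRNOG00000028841 had the largest difference between 10 h and the other times. Its level at 10 h was 22.6, 19.3 and 18.7 CPM in the 3 WT libraries and 1.15, 0.81 and 0.85 CPM in the 3 KO libraries. The groups lay far apart at 10 h, and the KO effect was -4.43 (SE 0.27, adjusted p 4.16e-15 by edgeR), a 21.5-fold lower level in KO. In WT the gene was at 5.51 ± 0.18 CPM at 14 h, 1.99 ± 0.23 at 18 h and 1.15 ± 0.19 at 22 h (SD, n = 3 each), while KO was at 0.80 ± 0.05 CPM at 14 h and 1.05 ± 0.52 at 22 h (SD, n = 3 each). The high level was thus a feature of WT at 10 h, and KO had no such level at any sampled time: its highest library over all later times was at 1.64 CPM. The KO effect was -2.78 at 14 h, -1.51 at 18 h and -0.14 at 22 h, and the last was not called (adjusted p 0.642). It was -0.37 at 26 h and -0.56 at 30 h, neither called. At 34 h it was -2.01 and was called again (adjusted p 3.1e-07 by edgeR). There WT was at 1.81 ± 0.43 CPM and KO at 0.45 ± 0.25 CPM (SD, n = 3 each). The difference between 10 h and the other times was -3.20 (SE 0.28, adjusted p 9.06e-10 by edgeR).

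In the other direction, ENSRNOG00000005491 had the largest difference among the 208 genes within these limits that had a larger effect and were higher in KO. Over all 288 such genes the highest difference was 2.21. Its level at 10 h was 3.18, 3.18 and 3.26 CPM in WT and 16.6, 17.5 and 17.7 CPM in KO. WT and KO did not overlap, and the KO effect was 2.43 (SE 0.25, adjusted p 5.62e-10 by edgeR), a 5.38-fold higher level in KO. From there the genotypes approached each other from both sides. WT at 10 h was below its later times by -1.29 on the log2 scale (SE 0.20, adjusted p 1.43e-05), and KO at 10 h was above its later times by 0.70 (SE 0.17, adjusted p 0.00776). The KO effect was 1.64 at 14 h, 1.0 at 18 h, 0.77 at 22 h, 0.42 at 26 h and -0.10 at 30 h, and the last 2 of these were not called. At 34 h it was -1.08, where WT replicate 1 was at 25.7 CPM against 7.86 and 9.62 in the other two. The difference between 10 h and the other times was 1.99 (SE 0.26, adjusted p 1.97e-06 by edgeR), and 1.87 without that library. Against 14 h alone it was 0.79 and was not called (adjusted p 0.505).

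The clearest change of sign was that of ENSRNOG00000025764. At 10 h it was at 66.9, 71.7 and 56.0 CPM in WT and at 34.2, 33.6 and 34.8 CPM in KO. KO was the lower at 10 h, with an effect of -0.92 (SE 0.15, adjusted p 2.82e-06 by edgeR). By 14 h WT was at 13.5, 16.4 and 14.4 CPM and KO at 26.5, 28.8 and 25.6 CPM, so that the order was turned in all libraries. The KO effect was 0.87 at 14 h, 1.27 at 18 h, 1.78 at 22 h, 1.76 at 26 h and 1.67 at 30 h, all called. At 34 h it was 0.17 and was not called (adjusted p 0.336). There WT replicate 1 was at 17.6 CPM against 10.3 and 8.89 in WT replicates 2 and 3, and KO was at 17.1, 11.8 and 12.6 CPM. The difference between 10 h and the other times was -2.17 (SE 0.17, adjusted p 3.48e-11 by edgeR), and -2.23 without WT replicate 1 at 34 h. It stayed called against 14 h alone, at -1.79. WT at 10 h was above its later times by 2.70 (SE 0.10, adjusted p 2.90e-20), and KO by 0.52 (SE 0.11, adjusted p 0.00237). Both genotypes thus had their highest mean at 10 h.

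ENSRNOG00000007808 changed sign the other way, and was first among the 15 such genes within the limits above. Over all 20 the highest difference was 2.14. At 10 h it was at 43.9, 41.8 and 52.5 CPM in WT and 70.6, 74.6 and 76.4 CPM in KO, without overlap, with an effect of 0.68 (SE 0.13, adjusted p 2.13e-05 by edgeR). At 30 h it was at 90.1 ± 5.85 CPM in WT and 52.7 ± 2.76 CPM in KO (SD, n = 3 each), an effect of -0.77 (adjusted p 2.85e-06). Between these times KO was the lower, called at 18, 22 and 26 h and not at 14 h, where the effect was -0.22 (adjusted p 0.122). At 34 h the effect was -0.28 (adjusted p 0.0570), and WT replicate 1 was at 51.4 CPM against 94.5 and 93.4. The difference between 10 h and the other times was 1.14 (SE 0.14, adjusted p 3.97e-07 by edgeR).

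**Figure D2:**
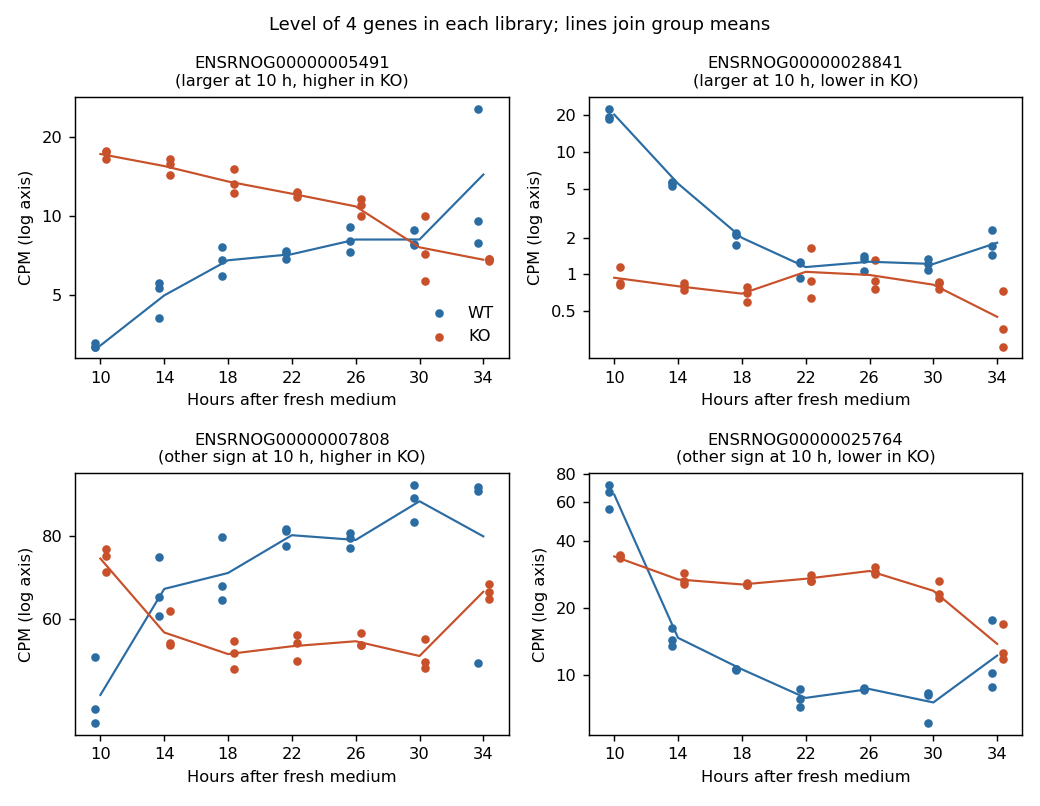
Level in CPM (log axis) of 4 genes against hours after fresh medium, with a point for each of the 3 WT (blue) and 3 KO (red) libraries and lines through group means. WT and KO are separate at 10 h in all 4 genes. The order of WT and KO at 10 h is opposite to that at 18 to 26 h in the lower pair.

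Over the 687 genes, 308 were higher in KO at 10 h and 379 were lower. With library totals of all genes, 137 of 760 genes with a larger effect were higher in KO, against 288 of 657. The 288 genes with a larger effect that were higher in KO had a median effect of 0.86 at 10 h, with quartiles of 0.57 and 1.33 and a highest value of 4.12. The 369 that were lower had a median of -0.80, with quartiles of -1.22 and -0.52 and a lowest value of -6.98. At least a 2-fold difference at 10 h was found for 248 of these 657 genes, and at least a 4-fold difference for 66. In most of the genes the difference between times was a modest part of a fold: its median was 0.47 in the genes higher in KO and -0.41 in the genes lower in KO, and it reached 1 or more in size for 62 of the 657. At the threshold, the last gene counted had a difference of -0.70 (SE 0.24, adjusted p 0.0499), and the first left out one of -0.22 (SE 0.08, adjusted p 0.0502).

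The larger effects fell into 2 kinds. In 351 genes the KO effect had the same sign at all 7 times, so that 10 h was the peak of a lasting difference. Their median at 10 h was 1.18 where higher and -0.98 where lower, and at 30 h it was 0.58 and -0.45. KO against WT was called at all of the other 6 times too in 222 of them. In the other 306 genes the later effects were of mixed sign, with medians at 10 h of 0.60 and -0.55 and at 30 h of -0.02 and 0.06. The effect of 35 of these was called at 10 h and at no later time. Over all genes tested, 1.05% were called at 10 h and at no later time, and 35.6% were called at all 7 times. A call at one time and not at another is no test of a difference, which for these genes is the test between times by which they were chosen.

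The WT and KO ranges at 10 h did not overlap in 680 of the 687 genes, against 78.7% of all genes tested. Since the genes were chosen by their difference at 10 h, this share is a description. The 687 were not confined to low counts: 545 had a mean of at least 10 CPM over the 6 libraries. In 1 gene a library at 10 h had a count of 0, and 6 had a mean count under 10 in the lower group. Some large differences rested on uneven libraries. Among the 310 genes lower in KO within the limits above, the second largest difference, -2.98, belonged to a gene with 175, 215 and 2459 CPM in WT and 62.7, 55.5 and 61.8 CPM in KO. It did not meet the rule without WT replicate 3 at 10 h, nor without any 1 of the 3 KO libraries. Among the 208 higher in KO, the second belonged to a gene with 4.55, 4.64 and 4.57 CPM in WT and 25.7, 36.9 and 132.8 CPM in KO. It did not meet the rule without KO replicate 3 at 10 h, nor without WT replicate 1 or 2. Of the 687 genes, 330 (48.0%) met the rule whichever of the 6 libraries was left out, 139 with a higher and 191 with a lower level in KO.

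The rule asked for later effects that were all smaller or all opposite, and whose mean was called different from the effect at 10 h. Lower later effects are thus built into the choice of genes. The order of the later times is not, since the rule treats them alike. In the 308 genes higher in KO, the median effect was 0.82 at 10 h, 0.54 at 14 h, 0.41 at 18 h, 0.37 at 22 h, 0.32 at 26 h, 0.21 at 30 h and 0.12 at 34 h. In the 379 genes lower in KO it was -0.79, -0.55, -0.40, -0.34, -0.29, -0.19 and -0.19 at the same times. The medians thus went down in size at each step up to 30 h in both directions. Without WT replicate 1 at 34 h, the medians at 34 h were 0.25 and -0.22, so that the value of the genes higher in KO at 34 h, 0.12 with that library, rested on it. Over all 13776 genes the median effect lay between -0.03 and 0.01 at each of the 7 times.

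The time nearest to 10 h in effect was most often the next one. In 466 of the 687 genes (67.8%) the later effect that was highest in the direction of 10 h was that at 14 h, against 83 genes at 34 h and 23 to 55 at each other time. Over all 13776 genes it was that at 14 h in 3414 (24.8%). The farthest effect was that at 34 h in 310 of the 687 genes, against 7021 of all 13776 genes. In the median gene 51.9% of the difference between 10 h and the mean of the other times was gone by 14 h. The effect fell at every step from 10 h to 30 h in 144 of the 687 genes, against 396 of all 13776 genes. A fall from 10 h to 14 h is set by the rule in each of the 687 genes and not in all genes. This count and the share gone by 14 h are therefore descriptions. KO against WT was called for 564 of the 687 genes at 14 h, 510 at 18 h, 482 at 22 h, 445 at 26 h, 418 at 30 h and 396 at 34 h. These are 82.1%, 74.2%, 70.2%, 64.8%, 60.8% and 57.6% of the genes, against 70.9%, 68.8%, 70.5%, 70.3%, 73% and 60.6% of all genes tested. The share thus went from above that of all genes at 14 h to below it at 30 h, in genes chosen for smaller or opposite later effects. At 34 h, 24 h after the first sampling, 448 of the 687 genes had the sign they had at 10 h, against 10267 of all 13776 genes. The values at 34 h in this paragraph include WT replicate 1.

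**Figure D3:**
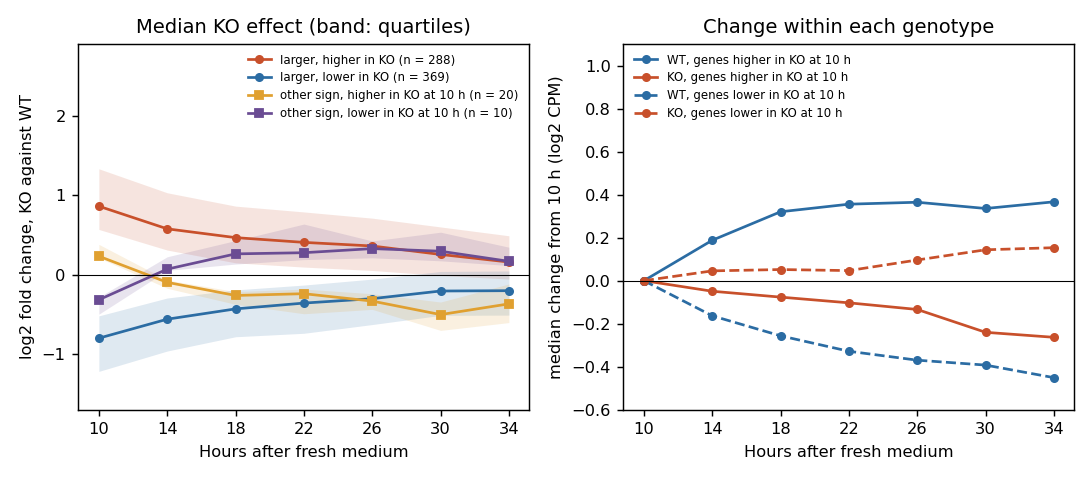
Left, median KO effect (log2 fold change, KO against WT) against hours after fresh medium for the 4 sets of genes, with bands from the first to the third quartile. Right, median change of log2 CPM from 10 h within WT (blue) and KO (red), for genes higher (solid) and lower (dashed) in KO at 10 h. WT lines move farther from 0 than KO lines at every later time.

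Most of the departure lay in the WT cells. Each gene's level at 10 h was set against the mean of the other 6 times within its genotype, by edgeR in the same fit. WT at 10 h differed from its later times in 517 of the 687 genes, against 18% of all genes tested. KO at 10 h differed in 167 of the 687, against 6.68% of all genes tested. Over all genes, the 2479 WT calls came to 1471 and 1582 without WT replicate 1 or 2 at 10 h, and the 920 KO calls to 394 to 425 without 1 KO library at 10 h. Without WT replicate 1 at 34 h they came to 4596 and 2499. These tests make up the difference by which the genes were chosen and are not independent of it. In 439 genes WT was called and KO was not, in 89 KO and not WT, in 78 both and in 81 neither. Over all 13776 genes these numbers were 2134, 575, 345 and 10722. These numbers are given only with WT replicate 1 at 34 h in the fit. The departure in WT was larger in size than that in KO in 531 genes (77.3%), against 59.2% over all genes. Where both were called, they went in opposite directions in 61 genes and in the same direction in 17, against 138 and 207 over all genes. Opposite departures add up in the difference by which the genes were chosen, so this split is a description.

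By direction, of the 308 genes higher in KO at 10 h, 218 were called in WT, at 10 h below later times, and 0 above them, and the median departure of WT was -0.33. In KO 80 of these 308 genes were called above their later times and 7 below, with a median departure of 0.15. Of the 379 genes lower in KO at 10 h, 299 were called in WT, at 10 h above later times, and 0 below them, with a median departure of 0.33. In KO 70 of the 379 were called below their later times and 10 above, with a median of -0.09. In the course of the medians, WT moved by 0.19 from 10 h to 14 h and by 0.36 to 22 h in the first set, and by -0.16 and -0.33 in the second. KO moved by -0.05 and -0.10 in the first set, and by 0.05 and 0.05 in the second.

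**Figure D4:**
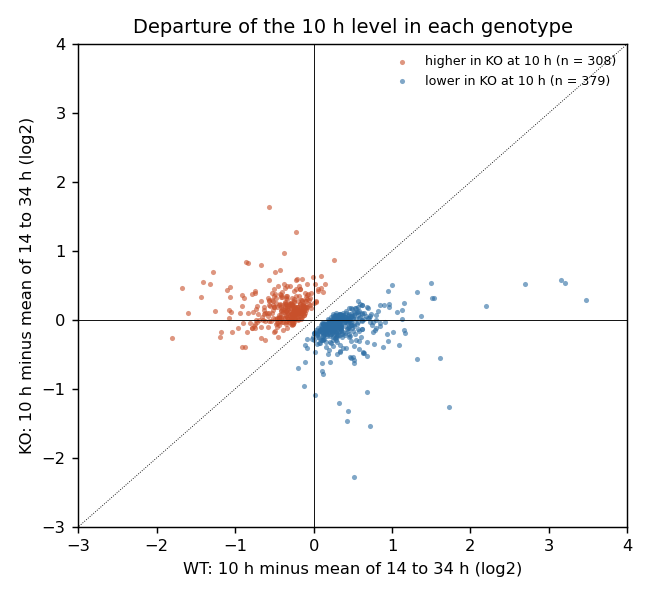
For each of the 687 genes, the log2 level at 10 h minus the mean of 14 to 34 h in WT (horizontal axis) and in KO (vertical axis). Genes higher in KO at 10 h (red) lie mostly left of 0 and genes lower in KO (blue) mostly right of 0, while the spread along the KO axis is smaller, with medians of 0.15 and -0.09.

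The 30 genes of other sign were 20 that were higher in KO at 10 h and lower later, and 10 that were lower at 10 h and higher later. Their effects at 10 h were small, with a median of 0.23 in the 20 genes and -0.32 in the 10, and 1 of the 30 reached a 2-fold difference. In the 20 genes the median effect was -0.10 at 14 h, -0.26 at 18 h, -0.24 at 22 h, -0.33 at 26 h, -0.50 at 30 h and -0.37 at 34 h, and KO was called lower in 2 of them at 14 h and in all 20 at 30 h. In the 10 genes it was 0.07 at 14 h, 0.26 at 18 h, 0.28 at 22 h, 0.33 at 26 h, 0.29 at 30 h and 0.17 at 34 h. KO was called higher in 3 of these 10 at 14 h and in 8 at 30 h. The change of sign by 14 h is set by the rule, and at 14 h the medians were smaller in size than at 10 h. WT at 10 h was called different from its later times in 15 of the 20 genes and 9 of the 10, and KO in 12 of the 20 and 2 of the 10. Since these effects lie close to 0, the sign depends on the scaling: with library totals of all genes 28 genes were of other sign, and 2 of them were among the 30. Without WT replicate 1 at 34 h 55 genes were of other sign, 26 of the 30 among them.

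The same rule was put to each of the other 6 times, as a measure of how far 10 h stands out. It was met by 687 genes at 10 h, 122 at 14 h, 76 at 18 h, 70 at 22 h, 93 at 26 h, 962 at 30 h and 2082 at 34 h. The last 2 times thus held the most genes, followed by 10 h, and the 4 times between 10 h and 30 h held fewer. Of the genes of other sign, 30 were found at 10 h, 365 at 34 h and 1 to 16 at each of the times between. Without WT replicate 1 at 34 h the counts were 1201 at 10 h, 412 at 14 h, 241 to 305 from 18 to 26 h, 1582 at 30 h and 2448 at 34 h, with 144 genes of other sign at 34 h. The order of the 10 h, 30 h and 34 h counts was the same with and without that library. The size of the KO effect over all genes did not follow these counts: the median absolute effect was 0.48 at 10 h, between 0.47 and 0.53 at the 5 times from 14 to 30 h, and 0.40 at 34 h.

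**Figure D5:**
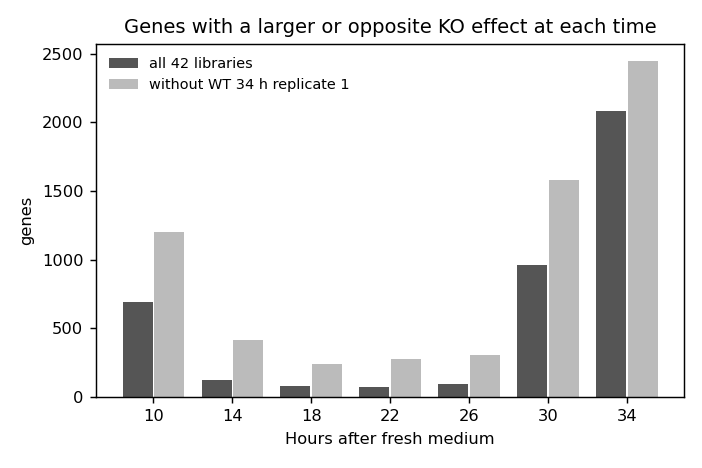
Number of genes whose KO effect is larger than at all other times, or of opposite sign to all of them, at each sampling time (hours after fresh medium), with all 42 libraries (dark) and without WT replicate 1 at 34 h (light). Counts are 687 and 1201 at 10 h, lower from 14 to 26 h, and higher than at 10 h at 30 h (962 and 1582) and 34 h (2082 and 2448).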

How the data were processed

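The authors deposited raw counts of reads in 2 tables, for WT and for KO, that were not normalized. Counting was done with featureCounts, per the submitters' processing notes, on strand-specific paired reads, per the labels' protocols. The aligner, genome build, annotation, strand setting and treatment of overlapping or near-identical genes are not given in the sources used here, so levels of such genes are uncertain. In its highest group, no listed gene fell below a mean of 50.3 counts. Both tables were joined on the gene identifier (13776 genes, 42 libraries), and groups came from the sample titles.

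Library totals and TMM factors were taken without ENSRNOG00000043866 and ENSRNOG00000030478 (kept in the fit), and CPM uses these totals multiplied by these factors. edgeR 4.0.16 (R 4.3.3) fitted a mean for each of the 14 groups to all 42 libraries, with robust quasi-likelihood F tests, and p-values were adjusted by Benjamini-Hochberg over 13776 genes. Its filter on low counts removed 0 genes. The fit was also run on simulated counts, with the same spread for every gene, effects in few genes and no outlying library. The data differ from that setting, and its outcome is not given here. Log2 CPM used a prior count of 1. Replicate pairs at 10 h differed by more than sampling noise (chi-square per degree of freedom of at least 8.86, over genes with 50 or more counts). This cannot tell separate cultures from separate preparations of the same culture. Each library counted as 1 replicate.

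The genes shown by identifier are, among the 687 with at least 10 CPM and groups that do not overlap, the first of each kind in each direction by the size of the difference between times. The members, lists and tests were chosen with earlier results of these data known. The gene lists and promoter motifs set for this work need symbols and were not used here. Alternatives were other scalings, DESeq2 1.42.0, a stricter filter, a minimum change, the replicate block, fewer times or libraries, and each library at 10 h left out.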

Additional observations from a re-analysis of the deposited data

Results flagged for a closer look

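Differences between sampling times in the effect of KO against WT passed a direct test. The effect at 10 h differed from the mean of the other 6 times for 1714 genes by edgeR at an adjusted p under 0.05. Of the 4 genes shown by identifier, the difference was 1.99 for ENSRNOG00000005491 and -3.20 for ENSRNOG00000028841, both with a larger effect at 10 h. It was 1.14 for ENSRNOG00000007808 and -2.17 for ENSRNOG00000025764, both with an effect of other sign at 10 h. These 4 genes were picked by the size of this same difference, so their values are a description.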

How the results depend on the processing

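Of 207 values under alternatives, 191 kept their direction and call or, for counts of genes, lay within 1.5 times of the value given. The 4 genes shown by identifier gave 116 of the values, of which 115 were the same and 0 reversed. They were picked for large differences, so a reversal was unlikely from the start. The other 91 values were counts of genes, and 76 were the same by size. A count of the same size can hold other genes or another share of directions. For changes without a stated cause, the cause was not tested. Without WT replicate 1 at 34 h, which stood apart, the difference between 10 h and the other times was called for 3530 genes, WT at 10 h against its later times for 4596 and KO for 2499, and 1146 genes had a larger effect and 55 one of other sign. With single libraries left out, that one among them, the ranges were 8847 to 10527 for KO against WT at 10 h, 1146 to 3530 for the difference between times, 441 to 1146 for larger effects, 21 to 55 for other sign, 1471 to 4596 for WT and 394 to 2499 for KO. The low values for WT came without WT replicate 1 (1471) or 2 (1582) at 10 h, and those for KO without KO replicate 1 (425), 2 (414) or 3 (394) at 10 h. A group then had 2 libraries. Set against 14 to 26 h, the difference was called for 1107 genes and 53 were of other sign. Set against 14 h, it was called for 63 genes, and that of ENSRNOG00000005491 was 0.79 (adjusted p 0.505). A minimum change of 1.5-fold, which asks for larger effects by construction, left 3410 genes for KO against WT at 10 h, 60.4% of them higher in KO, and 51 for the difference. With library totals of all genes, 137 of 760 genes with a larger effect were higher in KO, against 43.8% of 657, and 502 genes were shared. The share of KO calls at 10 h above later KO times was then 43.2%, against 54.3%. With DESeq2 the difference was called for 1973 genes. With the replicate number as a block, 9610, 1723, 664 and 31 genes were found for KO against WT, the difference, larger effects and other sign, and no call of the 4 genes changed. Deviations of WT and KO replicates of the same number at 10 h correlated at 0.03 to 0.05, and those of unlike number at -0.04 to 0.01. Each library correlated best with its own number. Correlations this small cannot decide whether the numbers pair the libraries. The main fit treats them as unpaired.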

Other observations

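The difference between 10 h and the other times also held genes on which KO acted least at 10 h. Of the 1270 genes called both at 10 h and for the difference, 583 did not meet the rule, and in 265 of these the effect at 10 h was smaller in size than at each of the other 6 times. A further 444 genes were called for the difference and not at 10 h.

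The level of ENSRNOG00000030478, 1 of the 2 genes left out of the scaling, was uneven in WT at 10 h, with 301.5, 68.5 and 63.9 CPM in the 3 libraries. The other, ENSRNOG00000043866, was also highest in WT replicate 1, with 541.9, 289.8 and 277.4 CPM. In KO at 10 h ENSRNOG00000030478 was at 27850 ± 2117 CPM (SD, n = 3).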
